A study of Mus musculus with 5 samples.

Results

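The genes of the proteasome and its immune variant were examined in mouse haematopoietic stem and progenitor cells (HSPCs). Members were all genes of the deposited RNA-seq table whose symbol starts with Psm, a letter from a to g and a number. There were 49 of 11352 listed genes, of which Psmb8, Psmb9, Psmb10, Psme1 and Psme2 are the 5 immunoproteasome genes and 44 are other members. Expression in 3 Cux1-low;NrasG12D libraries (called NrasG12D) was compared with that in 2 Cux1-low libraries. The NrasG12D mice carried the NrasG12D allele, a constitutively active form of a RAS GTPase, on top of a Cux1 knockdown. The Cux1-low mice carried the knockdown alone, so Cux1, a homeodomain transcription factor gene, was knocked down in both groups. All mice had received doxycycline and pI:C (a double-stranded RNA mimic and interferon inducer) for 4 weeks, and cells had been sorted as negative for lineage markers and CD135 and positive for KIT and SCA1. Age, sex and the promoters that drive the alleles are not stated in the labels. These also do not say whether each library is 1 animal. The p-values therefore rest on the spread between these 5 libraries, which may in part be technical.

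The proteasome is the large protease that degrades ubiquitin-tagged proteins in the cytosol and nucleus. Its 20S core is a barrel of alpha rings around beta rings that carry the catalytic sites. The 19S regulatory particle, made of a base with an ATPase ring and a lid, binds, unfolds and deubiquitinates the substrates. Interferons induce Psmb8, Psmb9 and Psmb10, whose products replace the constitutive catalytic subunits encoded by Psmb5, Psmb6 and Psmb7, and also Psme1 and Psme2, the subunits of the PA28 activator cap. The resulting immunoproteasome is known for making peptides for MHC class I, and blood cells express it constitutively at some level.

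The 44 other members comprised 32 subunits of the core and the 19S particle, 7 assembly chaperones, and Psme3, Psme4, Psmf1 and Psme2b, which belong with the activators and inhibitor. The last, Psmc3ip, encodes a meiotic recombination factor and was matched by its symbol only. The members rested on 328 to 11346 reads per library. The libraries held 16489711 to 20262498 reads over the listed genes. Values are the deposited CPM (read counts scaled to a common total and, by the authors, for library composition) and are called normalized CPM. Fold changes come from limma on log2(normalized CPM + 1), NrasG12D over Cux1-low, fitted on all 11352 genes with p-values adjusted after Benjamini and Hochberg and called under 0.05. NrasG12D library 3 stood apart from NrasG12D libraries 1 and 2 toward the Cux1-low libraries, and results are therefore given with and without it. That choice rests on its values, which tends to widen differences and narrow the spread. The p-values and calls of the fit without library 3 are therefore descriptive only. Without it, 4243 of all genes passed, against 128 with it, and 3 passed without NrasG12D library 1, 22 without NrasG12D library 2 and 3 without either Cux1-low library.

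Messages of the constitutive proteasome lay mostly higher in NrasG12D, each by a modest factor that did not pass the test with 5 libraries, and those of the immunoproteasome did not lie higher. Of the 44 other members, 42 had a positive log2 fold change, with a median of 0.33, while 49.7% of all listed genes had a positive sign and their median was -0.0030. For 36 of the 44, all 3 NrasG12D libraries lay above both Cux1-low libraries, where 26.5% of all genes did so. In the fit of all 5 libraries 0 of the 44 passed (limma adjusted p of 0.0801 to 0.938), where 0.255% of all genes were called higher and 0.872% lower. At an unadjusted p under 0.05 there were 29 of the 44 higher and 1 lower, where 14.8% of all genes were higher and 16.5% lower. In the authors' deposited table, 8 of the 44 were higher at an adjusted p under 0.05 (Psmb7, Psmg2, Psmd3, Psmd7, Psmc4, Psmd9, Psmc5 and Psmd4) and 0 were lower, where 6.97% of all genes were higher and 9.14% lower. Without NrasG12D library 3, 35 of the 44 rose and 1 fell (limma), where 18.0% of all genes rose and 19.4% fell. NrasG12D libraries 1 and 2 lay above both Cux1-low libraries for 40 of the 44, where 36.5% of all genes did so. Highly expressed genes leaned the same way. Of the 1040 genes at or above the median level of the 44, 67.9% had a positive sign and the median log2 fold change was 0.16. All 22 of the 44 at or above that level were positive. All 3 NrasG12D libraries lay above both Cux1-low libraries for 48.1% of the 1040 genes and for 20 of the 22.

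**Figure D1:**
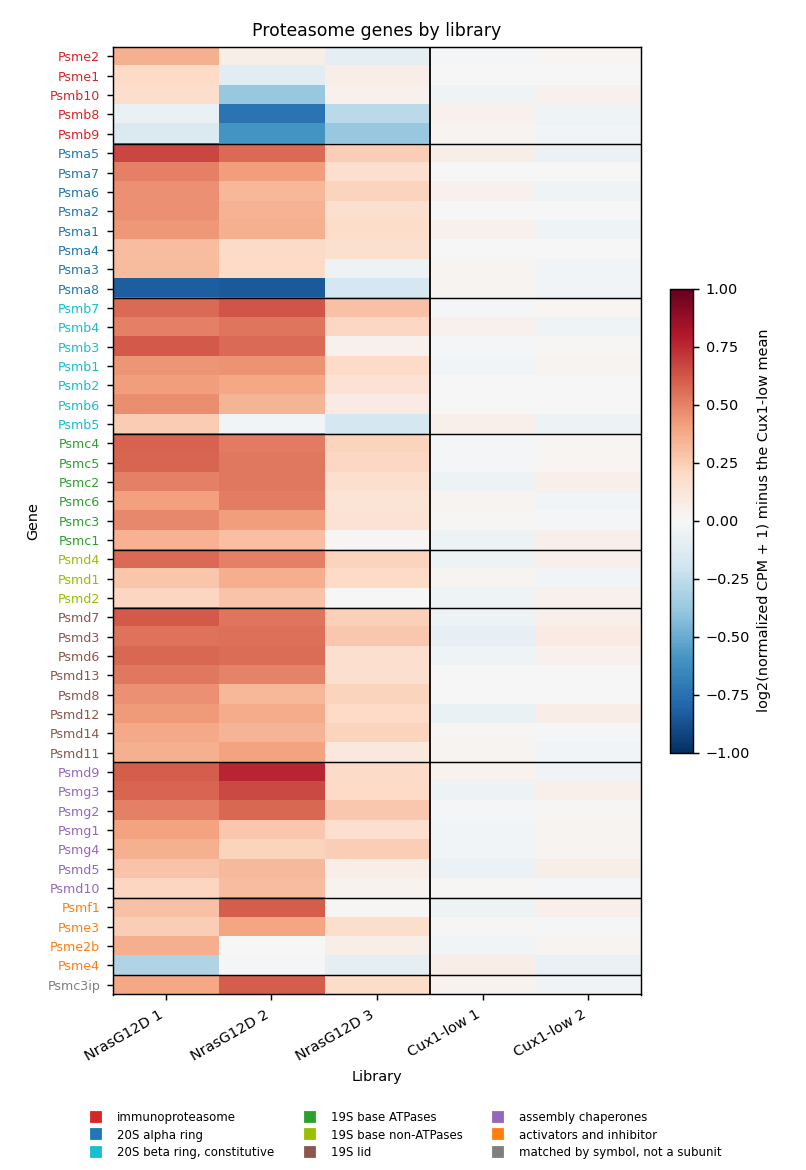
Heat map of all 49 members (rows, grouped and coloured by role) in the 5 libraries (columns), as log2(normalized CPM + 1) minus the Cux1-low mean. NrasG12D libraries 1 and 2 are red for most subunits, library 3 is paler, and Psma8, Psmb8 and Psmb9 are blue.

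The median over the 44 of the log2 difference from the Cux1-low mean was 0.44 in NrasG12D library 1, 0.40 in library 2 and 0.17 in library 3. For 36 of the 44, Psma8 among them from below, library 3 lay between the Cux1-low libraries and NrasG12D libraries 1 and 2, where 38.6% of all genes did so. Over the 5 immunoproteasome genes the same medians were 0.18, -0.38 and -0.10, and 0 of the 5 had library 3 between the groups. NrasG12D library 2 was the lowest of all 5 libraries for Psmb8, Psmb9 and Psmb10.

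The 20S alpha ring gates the entry to the core. Of its 8 listed genes, 7 were positive and Psma8 was negative, and 0 passed. Without NrasG12D library 3 there were 5 that rose and 1 that fell, where 18.0% of all genes rose and 19.4% fell. Psma7 was at 458, 431 and 363 normalized CPM in NrasG12D libraries 1 to 3, against 322 and 325 in Cux1-low libraries (log2 fold change 0.36, SE 0.13, limma adjusted p = 0.116). Psma6 was at 387, 356 and 329 in NrasG12D, against 290 and 274 in Cux1-low (log2 fold change 0.34, SE 0.11, limma adjusted p = 0.102). Every NrasG12D library exceeded both Cux1-low libraries for these subunits, and library 3 was the lowest of its group. Psma5 was at 57.9, 53.9 and 42.9 in NrasG12D, against 37.6 and 34.7 in Cux1-low, a 1.43-fold ratio of means. It has 2 near-identical copies in the annotation, so part of its reads may be lost or misplaced. Psma3 was at 32.2, 29.7 and 24.8 in NrasG12D, against 26.2 and 25.2 in Cux1-low, and its groups overlapped.

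Psma8 encodes an alternative subunit, known from the testis, that takes the place of the Psma7 product. It was at 18.9, 18.7 and 30.2 normalized CPM in NrasG12D, against 34.9 and 33.7 in Cux1-low (22.6 ± 6.57, SD, n = 3, against 34.3 ± 0.821, SD, n = 2). All 3 NrasG12D libraries lay below both Cux1-low libraries, with library 3 closest to them (log2 fold change -0.62, SE 0.23, limma adjusted p = 0.127). Without library 3 it fell by 0.83 on the log2 scale (SE 0.13, limma adjusted p = 0.00524). Per kilobase of transcript its level was 13.4 normalized CPM in NrasG12D and 20.3 in Cux1-low, against 457 and 353 for Psma7. Of the 44, it was the member that fell without library 3.

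The beta ring holds the catalytic subunits, encoded by Psmb5 (chymotrypsin-like), Psmb6 (caspase-like) and Psmb7 (trypsin-like), and structural ones. All 7 constitutive genes were positive, 0 passed with 5 libraries, and 6 rose without NrasG12D library 3, where 18.0% of all genes rose. Psmb7 (chr2:38588036-38644087, minus strand) was at 137, 143 and 113 normalized CPM in NrasG12D, against 90.7 and 93.4 in Cux1-low (131 ± 15.8, SD, n = 3, against 92.1 ± 1.94, SD, n = 2). The log2 difference, 0.50 (SE 0.13), had the smallest limma adjusted p of all members, 0.0801. Exons of Nek6 overlap 34.9% of its transcript, so some of its reads cannot be assigned with certainty. Psmb6 was at 278, 254 and 212 in NrasG12D, against 200 and 201 in Cux1-low (log2 fold change 0.30, SE 0.13, limma adjusted p = 0.177). Psmb4, a structural subunit, was at 233, 238 and 189 in NrasG12D, against 169 and 159 in Cux1-low (log2 fold change 0.42, SE 0.13, limma adjusted p = 0.0969). In each of these 3 genes every NrasG12D library lay above both Cux1-low libraries, where 26.5% of all genes did so. Psmb1 and Psmb2, also structural, had log2 fold changes of 0.36 and 0.31.

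Psmb5, which encodes the subunit that proteasome inhibitors such as bortezomib bind, was the exception in the beta ring. It was at 75.9, 62.3 and 56.1 normalized CPM in NrasG12D, against 65.7 and 61.1 in Cux1-low. The Cux1-low values lay within the NrasG12D range, and NrasG12D library 3 was the lowest of all. The difference was 0.020 on the log2 scale (SE 0.15, limma adjusted p = 0.938) and had no stable sign, being -0.044 on plain CPM. Psmb5 has 1 near-identical copy, and Mir686 overlaps 12.1% of its transcript. A direct test of Psmb5 against the other subunits was not made.

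The base of the 19S particle contains the ATPases Psmc1 to Psmc6, which unfold substrates. All 6 were positive (median log2 fold change 0.37), 5 had no overlap between groups, 0 passed, and all 6 rose without NrasG12D library 3. Of all genes, 26.5% lay above without overlap and 18.0% rose without library 3. Psmc4 was at 371, 352 and 287 normalized CPM in NrasG12D, against 244 and 248 in Cux1-low (log2 fold change 0.44, SE 0.13, limma adjusted p = 0.091). Psmc5 was at 309, 298 and 238 in NrasG12D, against 203 and 209 in Cux1-low (log2 fold change 0.44, SE 0.14, limma adjusted p = 0.0956). Library 3 was again lowest of NrasG12D and above both Cux1-low libraries in both. Psmc1 had the smallest difference of the 6, at 241, 233 and 191 in NrasG12D, against 182 and 196 in Cux1-low, and its groups overlapped.

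The base also holds Psmd4, a ubiquitin receptor, and the scaffold subunits Psmd1 and Psmd2. Psmd4 was at 313, 300 and 247 normalized CPM in NrasG12D, against 204 and 219 in Cux1-low (log2 fold change 0.43, SE 0.13, limma adjusted p = 0.0931). Psmd1 was at 430, 458 and 407 in NrasG12D, against 361 and 349 in Cux1-low (log2 fold change 0.28, SE 0.10, limma adjusted p = 0.123). Psmd2, at 365, 382 and 314 in NrasG12D and 304 and 323 in Cux1-low, had overlapping groups and did not pass without library 3 either (limma adjusted p = 0.0653). Psmd4 and Psmd1 did pass without it, with limma adjusted p = 0.00651 and 0.0295, where 18.0% of all genes rose.

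In the lid, which carries the deubiquitinase Psmd14, all 8 genes were positive and separated the groups, and 0 passed. All 8 rose without NrasG12D library 3. Of all genes, 26.5% separated the groups in that direction and 18.0% rose without library 3. Psmd3 was at 498, 500 and 411 normalized CPM in NrasG12D, against 323 and 361 in Cux1-low (log2 fold change 0.45, SE 0.13, limma adjusted p = 0.0854). Psmd7, the partner of Psmd14, was at 454, 428 and 349 in NrasG12D, against 286 and 306 in Cux1-low (log2 fold change 0.46, SE 0.14, limma adjusted p = 0.0894). Psmd14 was at 229, 223 and 206 in NrasG12D, against 178 and 174 in Cux1-low (log2 fold change 0.31, SE 0.10, limma adjusted p = 0.0984). Log2 fold changes of the 8 ran from 0.29 (Psmd11) to 0.46 (Psmd7), and differences between them were not tested.

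**Figure D2:**
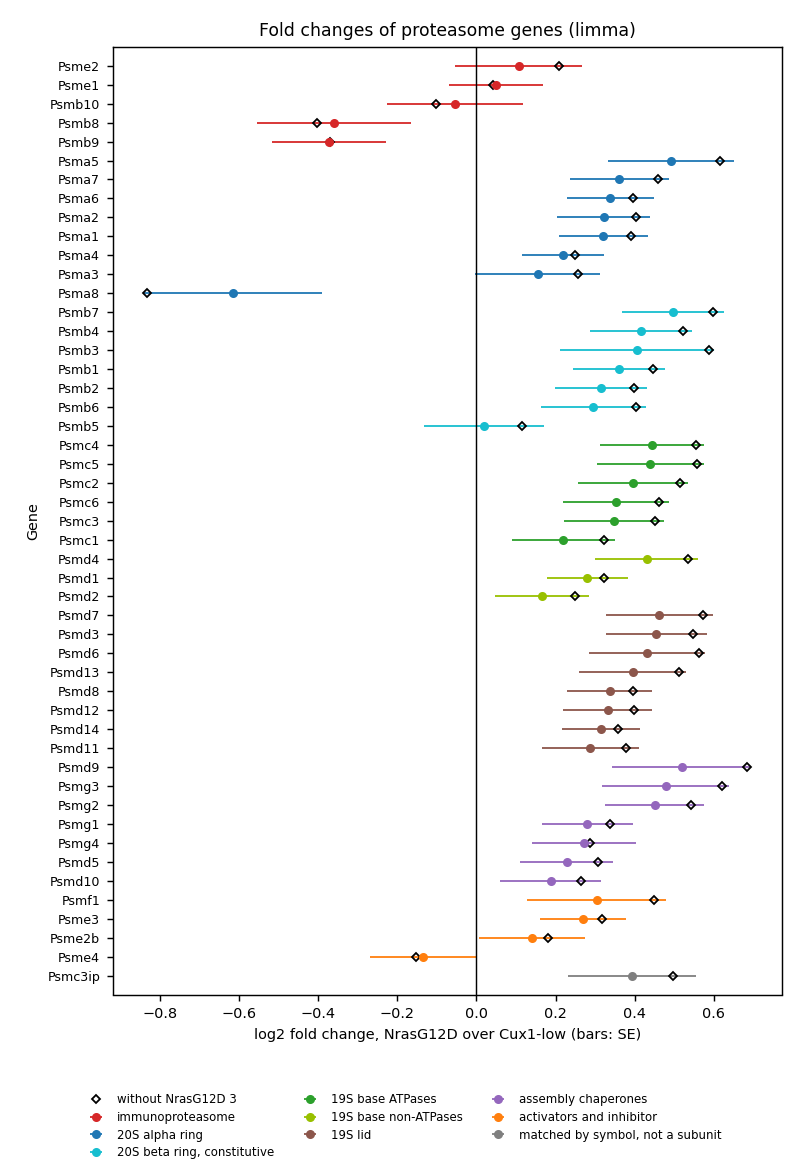
Log2 fold changes of the 49 members, NrasG12D over Cux1-low, with SE bars from limma on 5 libraries, and open diamonds for the fit without NrasG12D library 3. Constitutive subunits cluster near 0.33, Psma8 stands at -0.62, and Psmb8 and Psmb9 stand at -0.36 and -0.37.

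Assembly chaperones build the particle and leave it. All 7 listed were positive with no overlap between groups, 0 passed, and 5 rose without NrasG12D library 3. Of all genes, 26.5% lay above without overlap and 18.0% rose without library 3. Psmg2, which with Psmg1 starts the alpha ring, was at 122, 128 and 103 normalized CPM in NrasG12D, against 85.0 and 86.3 in Cux1-low (log2 fold change 0.45, SE 0.12, limma adjusted p = 0.0838). Psmd9, a chaperone of the ATPase ring, had the largest positive log2 difference of the members, 0.52 (SE 0.18, limma adjusted p = 0.113), at 108, 120 and 80.4 in NrasG12D, against 72.1 and 68.8 in Cux1-low. Psmg3 was at 85.1, 89.9 and 65.0 in NrasG12D, against 54.6 and 58.7 in Cux1-low (log2 fold change 0.48, SE 0.16, limma adjusted p = 0.11). Psmg4, its partner, was at 33.4, 30.4 and 30.9 in NrasG12D, against 25.4 and 26.4 in Cux1-low, and here library 2, not library 3, was the lowest of NrasG12D. Of the subunit and chaperone genes with other symbols, Adrm1, Sem1 (listed as Shfm1) and Pomp were measured and Paaf1 was not listed. Sem1, a lid subunit, and Pomp, the chaperone of the beta ring, each had 0.34 on the log2 scale (limma adjusted p = 0.154 and 0.101), Adrm1, a ubiquitin receptor, had 0.39 (limma adjusted p = 0.139), and all 3 rose without library 3.

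Of the 4 other activator and inhibitor genes (Psme3, Psme4, Psmf1 and Psme2b), 3 were positive (median log2 fold change 0.21), 0 passed, and Psme3 and Psmf1 rose without NrasG12D library 3 (limma adjusted p = 0.0369 and 0.0327). Of all genes, 49.7% were positive and 18.0% rose without library 3. Psme3, a nuclear activator of the core, was at 499, 553 and 476 normalized CPM in NrasG12D, against 424 and 419 in Cux1-low (log2 fold change 0.27, SE 0.11, limma adjusted p = 0.145). Psmf1, an inhibitor of the core in vitro, was at 141, 176 and 117 in NrasG12D, against 111 and 120 in Cux1-low, so its groups overlapped (log2 fold change 0.30, SE 0.17, limma adjusted p = 0.268). Psme4, which encodes the activator PA200, was at 42.7, 52.4 and 49.3 in NrasG12D, against 55.4 and 50.2 in Cux1-low, with overlapping groups as well (log2 fold change -0.13, SE 0.14, limma adjusted p = 0.52). Psmc3ip was at 36.5, 42.7 and 31.6 in NrasG12D, against 28.3 and 27.1 in Cux1-low (log2 fold change 0.39, SE 0.16, limma adjusted p = 0.152). It rose without library 3 (limma adjusted p = 0.0298), and exons of Mlx overlap 29.8% of its transcript.

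The immunoproteasome genes were lower or level in NrasG12D. Of the 5, 2 were positive and 3 negative, where 50.3% of all genes were negative, their median log2 fold change was -0.055, and 0 passed, with or without NrasG12D library 3 (limma). At an unadjusted p under 0.05, 1 was lower (Psmb9) and 0 higher. For Psmb8 and Psmb9, all NrasG12D libraries lay below both Cux1-low libraries, where 27.0% of all genes did so. The catalytic gene Psmb8 (chr17:34197721-34201454, plus strand) was at 516, 323 and 447 normalized CPM in NrasG12D, against 556 and 524 in Cux1-low (429 ± 97.9, SD, n = 3, against 540 ± 22.9, SD, n = 2). On the log2 scale it differed by -0.36 (SE 0.19, limma adjusted p = 0.244). NrasG12D library 1 came close to the lower Cux1-low library, and library 2 was far below the rest. Psmb9 (chr17:34181987-34187764, minus strand) was at 199, 145 and 170 in NrasG12D, against 225 and 216 in Cux1-low (171 ± 27.0, SD, n = 3, against 220 ± 6.35, SD, n = 2). On the log2 scale it differed by -0.37 (SE 0.14, limma adjusted p = 0.139), with library 2 again the lowest. Exons of Tap1 overlap 15.7% of the Psmb9 transcript and those of Gm20496 overlap 11.4% of that of Psmb8, so some of their reads cannot be assigned with certainty.

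Psmb10 and the PA28 genes did not separate the groups. Psmb10 (chr8:105935735-105938444, minus strand) was at 213, 144 and 194 normalized CPM in NrasG12D, against 183 and 194 in Cux1-low (log2 fold change -0.055, SE 0.17, limma adjusted p = 0.843). Here libraries 1 and 2 were the highest and the lowest of all 5, and without library 2 the log2 fold change was 0.11. Psme1 (chr14:55578123-55581529, plus strand) was at 293, 235 and 267 in NrasG12D, against 255 and 254 in Cux1-low (log2 fold change 0.050, SE 0.12, limma adjusted p = 0.789). On plain CPM the difference was -0.014, so it had no stable sign. Psme2 (chr14:55587441-55591113, minus strand) was at 49.7, 40.4 and 36.1 in NrasG12D, against 38.2 and 39.1 in Cux1-low (log2 fold change 0.11, SE 0.16, limma adjusted p = 0.667). Psme2b, a near-identical copy on chromosome 11, was at 135, 105 and 109 in NrasG12D, against 103 and 107 in Cux1-low, and reads may have been split between the pair. Their sum was 185, 145 and 145 in NrasG12D, against 141 and 146 in Cux1-low, with overlap as for each gene alone.

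**Figure D3:**
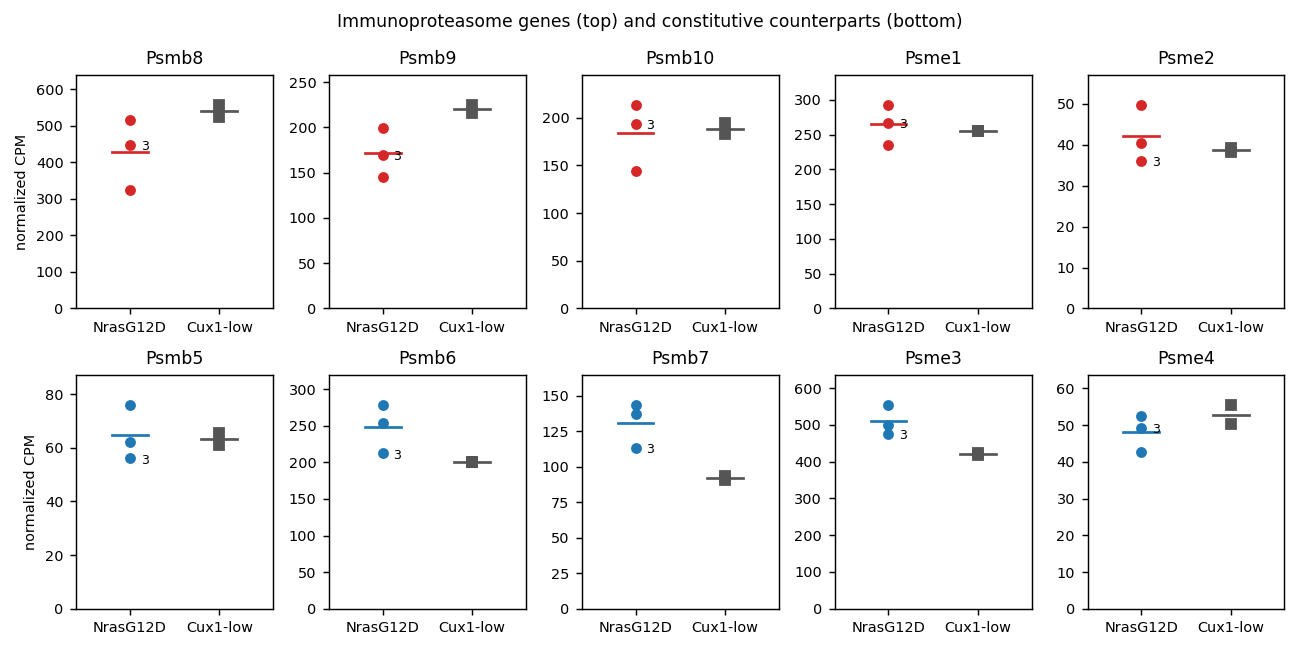
Normalized CPM per library of the 5 immunoproteasome genes (top, red) and of constitutive counterparts (bottom, blue), with NrasG12D left of Cux1-low (grey squares), lines at group means and library 3 marked. Psmb8 and Psmb9 are lower in all 3 NrasG12D libraries, and Psmb6, Psmb7 and Psme3 are higher in all 3.

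Each inducible catalytic subunit was set against the constitutive one it replaces, a ratio within a library that library scaling hardly moves. The log2 ratio of Psmb9 to Psmb6 was -0.48, -0.80 and -0.32 in NrasG12D, against 0.17 and 0.10 in Cux1-low. The difference was -0.67, and the exact permutation p (2-sided) was 0.1, the smallest that 10 arrangements of the libraries allow. The log2 ratio of Psmb10 to Psmb7 was 0.64, 0.01 and 0.77 in NrasG12D, against 1.003 and 1.05 in Cux1-low, a difference of -0.55 (exact permutation p = 0.2). The log2 ratio of Psmb8 to Psmb5 was 2.75, 2.36 and 2.97 in NrasG12D, against 3.06 and 3.08 in Cux1-low, a difference of -0.38 (exact permutation p = 0.2). Adjusted over the 3 ratios, each exact permutation p was 0.2, so this design could not have passed a threshold of 0.05. In all 3 ratios every NrasG12D library lay below both Cux1-low libraries, and library 2 was the lowest. For Psmb10 to Psmb7 the numerator differed little and the denominator was higher in NrasG12D, while for Psmb9 to Psmb6 the numerator was lower and the denominator higher in NrasG12D.

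**Figure D4:**
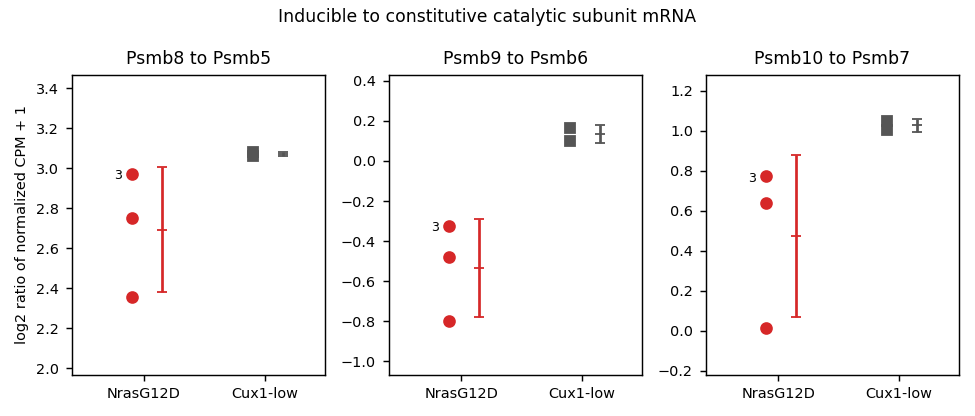
Log2 ratios of normalized CPM + 1 between each inducible catalytic gene and its constitutive counterpart, with 1 symbol per library, NrasG12D left of Cux1-low, means with SD bars beside them, and library 3 marked. All NrasG12D points lie below the Cux1-low points in each panel.

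Per kilobase of transcript, Psmb8 mRNA exceeded Psmb5 mRNA in every library, by 3.76, 2.86 and 4.40 times in NrasG12D and 4.68 and 4.74 times in Cux1-low. Psmb10 exceeded Psmb7 by 1.38 and 1.52 times in NrasG12D libraries 1 and 3, stood at 0.892 of it in library 2, and exceeded it by 1.78 and 1.84 times in Cux1-low. Psmb9 stayed below Psmb6, at 0.423, 0.338 and 0.471 of it in NrasG12D and 0.662 and 0.634 in Cux1-low. These levels depend on the 1 annotated transcript taken for each gene.

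Promoter sequences of the catalytic genes are shown because Psmb8 and Psmb9 lay lower and Psmb6 and Psmb7 higher in NrasG12D and because Psmb9 shares its start region with Tap1. RefSeq promoters on GRCm38.p6 (mm10) were matched for 41 of the 49 members, and no entry was matched for Psmb7. The 250 bases before each start are given 5′ to 3′ on the gene's strand, for Psmb9 at chr17:34187331-34187580 (minus strand), Psmb8 at chr17:34197945-34198194 (plus strand), Psmb10 at chr8:105938393-105938642 (minus strand), Psmb6 at chr11:70525107-70525356 (plus strand) and Psmb5 at chr14:54617996-54618245 (minus strand). These RefSeq starts differ from the GENCODE gene bounds given above. The Psmb8 and Psmb9 windows lie wholly inside those bounds, so they are upstream of the RefSeq start only. Capitals mark matches to the motifs named after them.
Psmb9: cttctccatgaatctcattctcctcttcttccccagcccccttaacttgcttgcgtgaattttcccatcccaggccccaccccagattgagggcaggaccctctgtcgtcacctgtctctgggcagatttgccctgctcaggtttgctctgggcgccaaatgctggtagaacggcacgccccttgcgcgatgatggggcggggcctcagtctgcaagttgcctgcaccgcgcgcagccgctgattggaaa
Psmb8: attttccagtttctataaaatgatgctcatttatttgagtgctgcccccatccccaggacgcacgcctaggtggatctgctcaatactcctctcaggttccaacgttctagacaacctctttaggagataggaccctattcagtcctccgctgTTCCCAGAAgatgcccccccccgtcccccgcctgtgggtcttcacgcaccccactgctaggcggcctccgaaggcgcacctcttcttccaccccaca
Psmb10: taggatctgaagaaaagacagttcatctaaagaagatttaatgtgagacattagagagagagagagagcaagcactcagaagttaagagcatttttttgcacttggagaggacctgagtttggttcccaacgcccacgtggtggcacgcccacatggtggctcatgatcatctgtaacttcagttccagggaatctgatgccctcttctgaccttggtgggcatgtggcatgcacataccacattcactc
Psmb6: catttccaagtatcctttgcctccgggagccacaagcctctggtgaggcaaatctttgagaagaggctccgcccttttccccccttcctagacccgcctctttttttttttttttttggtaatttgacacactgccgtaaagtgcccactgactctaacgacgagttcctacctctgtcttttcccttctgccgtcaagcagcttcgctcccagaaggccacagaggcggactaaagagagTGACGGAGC
Psmb5: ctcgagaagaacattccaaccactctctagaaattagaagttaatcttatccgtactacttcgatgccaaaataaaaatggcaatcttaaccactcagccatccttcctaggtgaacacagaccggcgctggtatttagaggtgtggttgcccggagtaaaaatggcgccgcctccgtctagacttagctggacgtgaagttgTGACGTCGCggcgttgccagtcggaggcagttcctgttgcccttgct

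Both strands of these windows were searched for the interferon-stimulated response element (GAAA, any 2 bases, GAAA), TTCNNNGAA (the interferon-gamma-activated site) and TGACNNNGC (the core of the antioxidant response element, bound by the proteasome gene activator NFE2L1). The second was found in the Psmb8 window, starting 97 bases before the RefSeq start and inside the GENCODE bounds of the gene. The third was found in the windows of Psmb6, starting 9 bases before the start, and Psmb5, starting 47 bases before it. The first element was in 3 of 36 windows of other members and 0 of 5 of immunoproteasome genes, where 3.46% of all genes with a promoter had it. The second was in 1 of 36 and 1 of 5, where 8.13% of all genes had it. The NFE2L1 motif was in 5 of 36 and 0 of 5, where 11.5% of all genes had it. The RefSeq starts of Psmb9 and Tap1 face away from each other with 225 bases between them, all of which lie in both promoter windows.

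Psmb8 and Psmb9 lie beside Tap1 and Tap2, which encode the transporter that carries proteasome-made peptides into the endoplasmic reticulum. Tap1 was at 309, 258 and 305 normalized CPM in NrasG12D, against 488 and 454 in Cux1-low (log2 fold change -0.70, SE 0.12, limma adjusted p = 0.0508). Tap2 was at 313, 241 and 332 in NrasG12D, against 343 and 395 in Cux1-low (log2 fold change -0.33, SE 0.16, limma adjusted p = 0.2). Both were lower in every NrasG12D library, as Psmb8 and Psmb9 were. Of 11 listed class I antigen processing partners, 9 were negative (median log2 fold change -0.38), 1 fell and 6 fell without NrasG12D library 3. Among all genes 50.3% were negative, 0.872% fell and 19.4% fell without library 3. The one that fell was Nlrc5, the transactivator of MHC class I and immunoproteasome genes, at 44.6, 48.2 and 58.9 in NrasG12D, against 113 and 106 in Cux1-low (log2 fold change -1.11, SE 0.15, limma adjusted p = 0.0355). Its adjusted p was 0.158, 0.0701, 0.365 and 0.328 without NrasG12D library 1 or 2 or Cux1-low library 1 or 2, so the call ended without any of these 4.

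Of 16 genes listed for the induction of immunoproteasome genes, 13 were negative, where 50.3% of all genes were. The list was not limited to established inducers, and Irf2 and Stat3 were among the 13. The median log2 fold change of the 16 was -0.39. Irf1, an interferon-induced transcription factor that binds the Psmb9 promoter, was at 118, 93.4 and 134 normalized CPM in NrasG12D, against 209 and 205 in Cux1-low (log2 fold change -0.86, SE 0.16, limma adjusted p = 0.0533). Its NrasG12D libraries all lay below both Cux1-low libraries. Without NrasG12D library 3, 6 of the 16 fell and 1 rose, where 19.4% of all genes fell and 18.0% rose. The log2 difference of Nlrc5 was thus larger than those of Psmb8 and Psmb9, and Psmb10, Psme1 and Psme2 did not separate the groups beside it.

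The known regulators of constitutive proteasome genes gave no call with 5 libraries. Of 10 listed regulators, 3 were positive and 7 negative (median log2 fold change -0.15), and 0 passed with 5 libraries. Of all genes, 50.3% were negative and 19.4% fell without NrasG12D library 3. The list of regulators was not limited to activators. Keap1, Bach1 and Bach2 were among the 7 negative, with log2 fold changes of -0.16, -0.23 and -0.13. Without NrasG12D library 3, Nfe2l1 fell, and it was at 115, 113 and 146 normalized CPM in NrasG12D, against 159 and 149 in Cux1-low (log2 fold change -0.31, SE 0.14, limma adjusted p = 0.18 with 5 libraries). Ngly1, whose product activates the NFE2L1 protein, was at 70.9, 85.6 and 76.5 in NrasG12D, against 97.7 and 97.4 in Cux1-low (log2 fold change -0.33, SE 0.12, limma adjusted p = 0.122). Of the 10, 4 lay below both Cux1-low libraries in every NrasG12D library, Nfe2l1 and Ngly1 among them. Another 2 lay above in every one, Nfe2l2 (log2 fold change 0.16, limma adjusted p = 0.385) and Mafg (0.29, limma adjusted p = 0.155). Among all genes, 27.0% lay below and 26.5% above in this way. Any link between these mRNA levels and those of the subunit genes was not tested.

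Messages of factors that associate with the proteasome or shuttle substrates to it were mixed. Of 16 listed associated and shuttle factors, 12 were positive (median log2 fold change 0.10), 0 passed, and 3 rose and 2 fell without NrasG12D library 3. Of all genes, 49.7% were positive, and 18.0% rose and 19.4% fell without library 3. The ubiquitin shuttle gene Rad23b was at 63.5, 62.7 and 70.9 normalized CPM in NrasG12D, against 38.1 and 47.5 in Cux1-low (log2 fold change 0.61, SE 0.14, limma adjusted p = 0.0705). Zfand5, which encodes a proteasome activator, was at 118, 107 and 148 in NrasG12D, against 176 and 186 in Cux1-low (log2 fold change -0.55, SE 0.15, limma adjusted p = 0.0835). Of 6 genes for ubiquitin and its activating enzymes, 3 were positive and 0 passed. Rps27a, a ubiquitin fusion gene, was at 18.6, 17.9 and 11.7 in NrasG12D, against 9.31 and 9.39 in Cux1-low. It differed by 0.69 on the log2 scale (SE 0.23, limma adjusted p = 0.108). Near-identical copies were not searched for this gene.

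**Figure D5:**
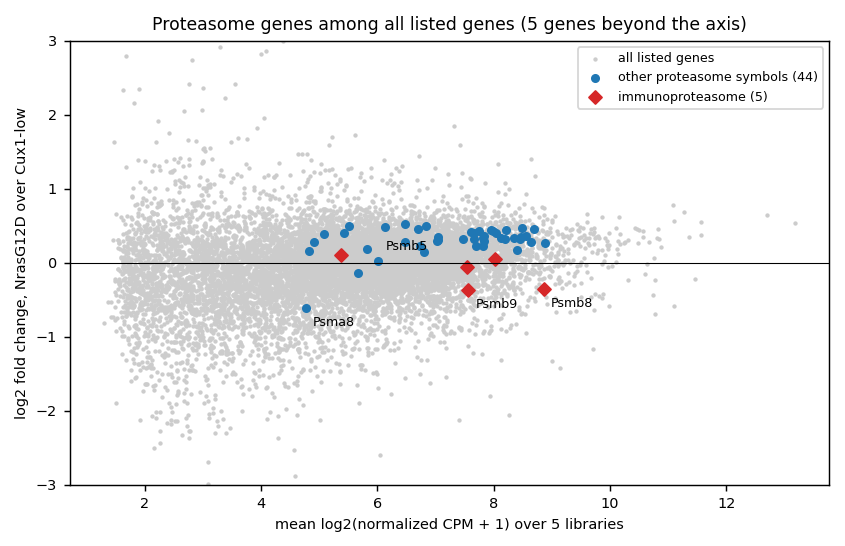
Log2 fold change, NrasG12D over Cux1-low, against mean log2(normalized CPM + 1) over the 5 libraries for all listed genes (grey), the 44 other members (blue) and the 5 immunoproteasome genes (red). The blue points lie mostly above 0 at medium to high levels, and 5 genes lie beyond the axis.

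Markers of cell types leaned with the groups too, and in a bulk library fewer cells of a type and less RNA per cell cannot be told apart. For scale, 49.7% of all genes were positive and 50.3% negative, with 0.255% called higher and 0.872% lower. Without NrasG12D library 3, 18.0% of all genes rose and 19.4% fell. Stem cell markers had 6 of 7 negative signs and 0 calls (summed level 195 to 520 in NrasG12D and 894 to 936 normalized CPM in Cux1-low), and 6 fell without NrasG12D library 3. Erythroid markers had 6 of 6 positive signs (2560 to 5334 in NrasG12D and 1927 to 2144 in Cux1-low) and 0 calls, and all 6 rose without library 3. B cell markers had 7 of 7 positive signs (58.0 to 463 in NrasG12D and 56.0 to 74.5 in Cux1-low) and 0 calls, and all 7 rose without library 3. In these 3 lists library 3 had the sum nearest to Cux1-low, and for 36 of the 44 other members it lay between the groups. MHC class II and dendritic cell markers had 6 of 7 negative signs (392 to 568 in NrasG12D and 1001 to 1278 in Cux1-low). With 5 libraries 1 of them fell (H2-Aa, limma adjusted p = 0.0478, and 0.152, 0.0875, 0.387 and 0.313 without NrasG12D library 1 or 2 or Cux1-low library 1 or 2), and without library 3 there were 6. Granulocyte and macrophage markers had 4 of 4 positive signs (7619 to 18162 in NrasG12D and 6966 to 9913 in Cux1-low; 3 rose without library 3), and megakaryocyte markers had 4 of 4 negative signs (422 to 771 in NrasG12D and 713 to 718 in Cux1-low; 3 fell without library 3). Not listed were Hoxb5, Hba-a1, Hbb-bt, Pax5, Siglech, Ly6g, S100a8, S100a9 and all 4 T cell markers. The sort genes Kit, Ly6a and Flt3 were all lower in every NrasG12D library than in both Cux1-low libraries, where 27.0% of all genes were. The part of these cell types in the proteasome differences was not tested.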

How the data were processed

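RNA-seq had been made from polyA RNA of sorted mouse HSPCs with a TruSeq kit, per the labels' protocols, in 3 Cux1-low;NrasG12D and 2 Cux1-low libraries. TopHat, HTSeq, edgeR, hg19 and mm10 appear in the submitters' processing notes, with no role for each. The deposited signal values are headed CPM, per the file headers, and their columns sum to 971746 to 1026780, so the authors had applied a composition factor. Every listed gene exceeded 1 in at least 3 libraries, so genes above 1 only in Cux1-low are not listed, and every member passed that filter. The authors' deposited log2 fold changes, likelihood ratio scores and p-values per gene are used only where named. Values were whole multiples of 1 step per library (0.0481 to 0.0608), which gave reads for judging depth. The test was limma 3.58.1 (R 4.3.3) with trended variance on log2(value + 1), without a block. A filter of 1 in at least 2 libraries removed 0 genes. Coordinates and overlaps are from GENCODE M21 (mm10). Near-identical copies had at least 95% identity over at least 50% of the transcript (BLAST 2.17.0). The sources used here do not state if reads were counted by strand. Members, lists and the rule for named genes (the 5 immunoproteasome genes, the 3 constitutive catalytic genes, and in each role group the 2 smallest p and any opposite sign, others being summarised or chosen after their values were seen) were chosen with earlier results of these data known. Sums over markers are in normalized CPM. Some genes of the pathway lists are counted but not reported here by name.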

Additional observations from a re-analysis of the deposited data

How the results depend on the processing

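Of 14 alternatives tried for the 49 members (pseudocounts of 0.1 and 0.5, a filter of 5 and none, 2 other scalings, robust and untrended limma, 5 single libraries left out, and a replicate block), 45 members kept 1 sign throughout. Signs turned on plain CPM for Psmb5 (log2 fold change -0.044) and Psme1 (-0.014), and with single libraries left out for Psmb5 (-0.099 without NrasG12D library 1 and -0.032 without Cux1-low library 2, range -0.099 to 0.12), Psme1 (-0.024 without NrasG12D library 1, range -0.024 to 0.13), Psme2 (-0.017 without NrasG12D library 1, range -0.017 to 0.21) and Psmb10 (0.11 without NrasG12D library 2, range -0.17 to 0.11). The cause was not tested. Plain CPM gave 213 calls over all genes, 31 higher and 182 lower, against 29 and 99. Leaving out 1 library gave 3 to 4243 calls over all genes and 0 to 36 of the 44 other members, the largest both without NrasG12D library 3. Without a Cux1-low library that group has 1 sample, which is assumed to vary like NrasG12D.

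In the replicate block NrasG12D library 3 has no partner, so the fold changes equalled those of the fit without library 3. The block gave 4163 calls over all genes (1892 higher and 2271 lower) and 31 of the 44 other members. It also called 2 immunoproteasome genes (Psmb8 and Psmb9, lower, limma adjusted p = 0.0292 and 0.041). The replicate numbers were not shown to pair the libraries: across genes, the difference between libraries 1 and 2 in NrasG12D had a correlation of -0.116 with that in Cux1-low. Of the 44, 41 or 42 were positive under each alternative, and 33 to 40 had all NrasG12D libraries above Cux1-low under 3 alternatives chosen after seeing the data. The differences of the 3 catalytic ratios were negative under all their alternatives. With every NrasG12D ratio below both Cux1-low ratios, leaving out 1 library or blocking could not turn the sign. Scaling hardly moves a ratio. At 328 reads, the fewest behind a value (Psma8), counting error adds to the spread between libraries.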
